A study of Mus musculus with 2 samples.

Results

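Semaphorins and ephrins are ligands on or near the cell surface that steer growing axons and migrating cells, and their main receptors are the plexins and the Eph receptor tyrosine kinases. Class 3 semaphorins are secreted and mostly need a neuropilin beside a plexin, whereas semaphorins of classes 4 to 7 are held in the membrane. In the injured spinal cord these families are known as repellents of axons on myelin, on reactive astrocytes and in the fibrotic scar, and they also act in oligodendrocyte lineage cells, vessels and immune cells. Every gene symbol of the deposited feature list with the form of a semaphorin, plexin, ephrin or Eph receptor was taken, which gave 51 of 32285 features. They comprise 20 semaphorins (7 of class 3, 6 of class 4, 2 of class 5, 4 of class 6 and 1 of class 7), 9 plexins, 8 ephrins and 14 Eph receptors.

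Nuclei of injured spinal cord were profiled in 2 droplet libraries, labelled AEVs and PBS, each made from 3 pooled mice. The AEVs mice received 100 µg of extracellular vesicle protein in 100 µL of PBS by tail vein on 5 consecutive days, and the PBS mice received 100 µL of PBS on the same schedule. All were wild-type C57BL/6 mice aged 6 to 8 weeks, all had a contusion at T10 from a 5 g rod of 1 mm diameter dropped from 6 cm, all received antibiotics, and all were killed on day 7 after injury. The letter A of AEVs and the source of the vesicles are not spelled out in the labels. With 1 library per group no difference below has a replicate check, and the intervals given are 95% counting intervals that leave out differences between mice and between pools.

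After filtering, 15549 AEVs nuclei and 14023 PBS nuclei remained, with medians of 2400 and 2600 unique molecular identifiers (UMIs, counted transcript molecules) per nucleus. The labelled tissue was met by its markers: clusters were named from lists of marker genes and gave neurons (4722 AEVs and 3528 PBS nuclei), oligodendrocytes (3897 and 3138), precursors (391 and 458), astrocytes (1146 and 944), microglia (1064 and 804), Gpnmb-led phagocytes (957 and 1175), fibroblasts (546 and 983) and smaller classes. A further cluster of 1413 AEVs and 1170 PBS nuclei raised 10 of 10 oligodendrocyte markers but carried Enpp6, a gene of differentiating cells, among its leading genes. It was therefore kept apart as the Klk6-led oligodendroglial class. The name is a label only, since Klk6 came after Anln and Apod among its leading genes. Klk6 was also a leading gene of a cluster of 1630 nuclei in the oligodendrocyte class. Fibroblast nuclei were 3.51% of AEVs nuclei and 7.01% of PBS nuclei, so values over all nuclei mix a change in class shares with change inside classes. The libraries shared 177 barcode sequences, nuclei above the 5% mitochondrial limit numbered 103 in AEVs and 527 in PBS, and free RNA carries UMIs of abundant genes into every class.

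Levels are UMIs of a gene scaled to 1000000 UMIs of the class (CPM). Since 3′ UMIs are not scaled by transcript length, levels are compared between classes and libraries and not between genes. A member was tested in a class with at least 100 nuclei per library when it had at least 50 UMIs in the library where it was higher, was found in at least 2% of those nuclei, and reached at least 0.25 of its level in its highest class. It was called when the AEVs over PBS ratio passed 1.5-fold.

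The sequences before the start sites are shown for the 3 members whose levels differed between AEVs and PBS over all nuclei and in both oligodendroglial classes. Ephb1 (ENSMUSG00000032537) lies on the minus strand of chr9:101922128-102354693, Plxnb3 (ENSMUSG00000031385) on the plus strand of chrX:73757090-73772514, and Efna1 (ENSMUSG00000027954) on the minus strand of chr3:89271733-89281142 (GENCODE M21, mouse GRCm38). Each line gives the 250 bases upstream of the RefSeq start site nearest to the annotated gene start (GRCm38.p6), 5′ to 3′ on the gene's strand, with motif matches in capitals: chr9:102354694-102354943 for Ephb1, chrX:73756853-73757102 for Plxnb3 and chr3:89280952-89281201 for Efna1.
Ephb1: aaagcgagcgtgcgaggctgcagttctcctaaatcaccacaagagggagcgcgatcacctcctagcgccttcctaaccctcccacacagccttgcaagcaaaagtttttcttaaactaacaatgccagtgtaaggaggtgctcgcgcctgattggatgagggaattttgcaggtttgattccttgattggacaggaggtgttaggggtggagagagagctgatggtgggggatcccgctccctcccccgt
Plxnb3: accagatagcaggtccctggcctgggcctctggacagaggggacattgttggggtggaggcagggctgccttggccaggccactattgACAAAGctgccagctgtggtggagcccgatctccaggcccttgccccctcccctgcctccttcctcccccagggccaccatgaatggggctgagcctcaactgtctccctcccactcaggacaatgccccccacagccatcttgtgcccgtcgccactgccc
Efna1: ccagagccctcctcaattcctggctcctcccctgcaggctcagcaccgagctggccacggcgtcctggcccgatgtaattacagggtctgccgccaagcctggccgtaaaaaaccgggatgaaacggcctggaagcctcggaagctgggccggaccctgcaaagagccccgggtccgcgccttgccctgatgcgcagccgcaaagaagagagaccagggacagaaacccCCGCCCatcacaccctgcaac
In all 3 promoters 3 motifs were searched on both strands, overlaps allowed: GGGCGG (the GC box bound by Sp1), ACAAAG (a core of Sox factors) and CTGGCAC (a core of the myelin factor Myrf). They occur in 32.7%, 16.5% and 4.19% of the 32851 promoters in the table, in which a gene can have several. Among the 45 of 51 members with an entry, each taken at its 1 start site nearest to the annotated gene start, 34 held GGGCGG, 6 held ACAAAG and 1 held CTGGCAC. The shares are over all promoters and the members' counts over 1 promoter a gene, so they are not on the same base. Plxnb3 had 1 ACAAAG, Efna1 had 1 GGGCGG on the other strand, and the Ephb1 window held none of these letters. These matches are letters in a window and not sites of binding.

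The members were divided over the classes of the cord. Pooled over both libraries, 23 of 51 members were at least 2-fold higher in 1 class than in any other, and for all 23 the leading class was the same in AEVs and in PBS. Over the whole set the leading class was the same in both libraries for 41 of 51 members. These shares were not counted over all genes, so they do not set the members apart from other genes. Some leads rest on few UMIs in the leading class, with 59 for Sema4c, 49 for Sema6b, 47 for Sema6c and 27 for Ephb6.

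**Figure D1:**
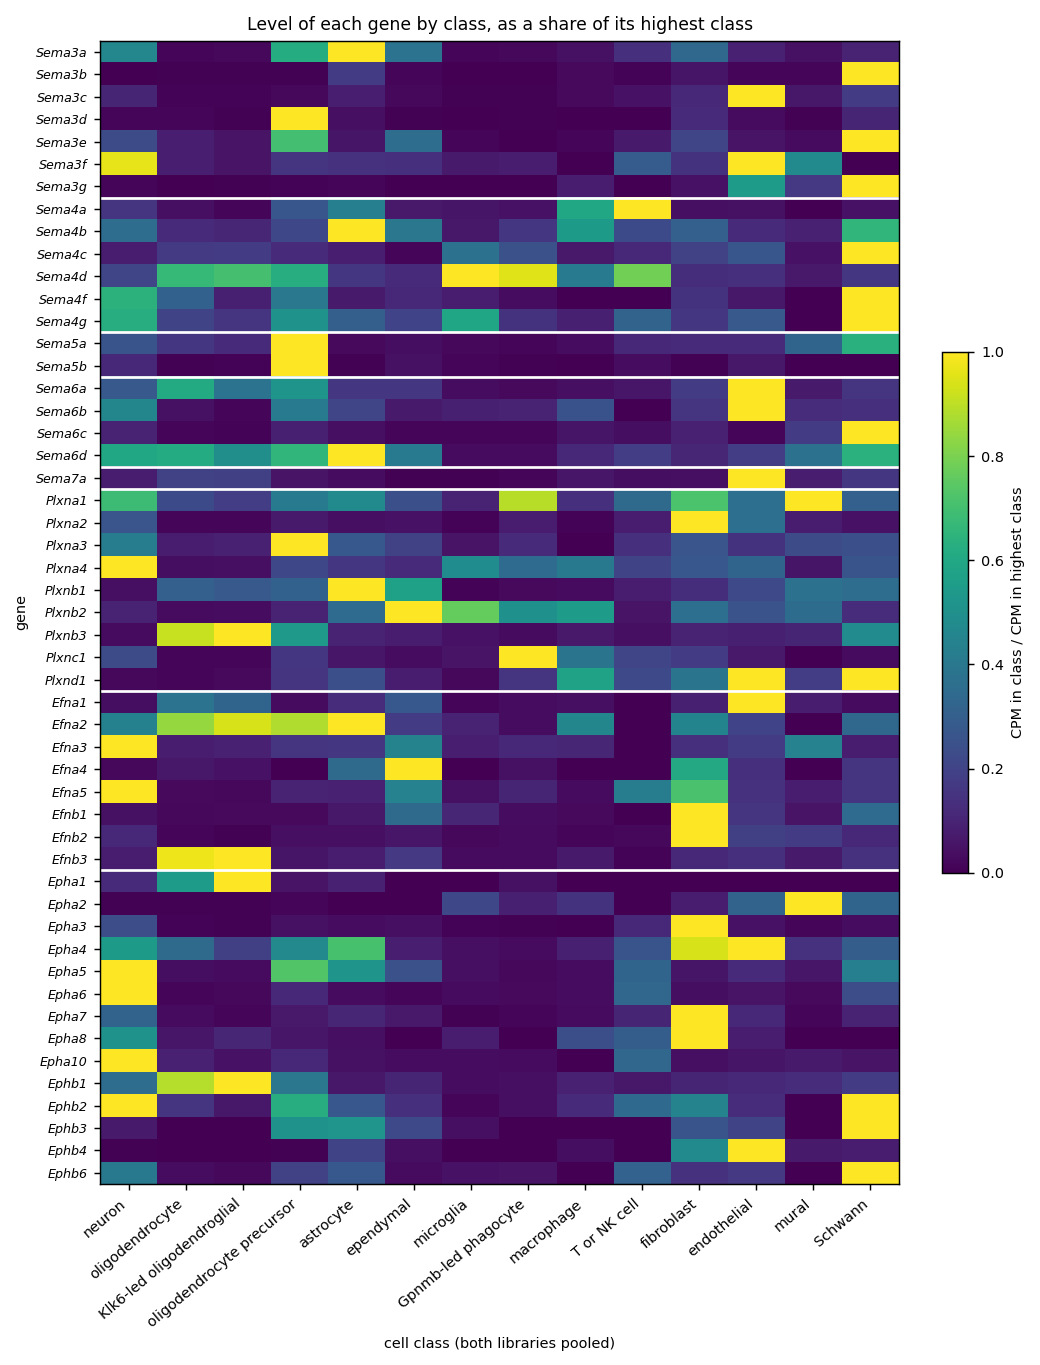
Level of each of the 51 members (rows, by family) in each class of nuclei (columns), pooled over the AEVs and PBS libraries and drawn as a share of the member's highest class. Each row has its brightest cell in its leading class. The semaphorins, the plexins, the ephrins and the Eph receptors are each led by several classes.

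Among class 3 semaphorins, Sema3d was the precursor ligand, at 1033 CPM in AEVs precursors and 922 CPM in PBS precursors, 8.43-fold over the next class. Sema3c, a guidance signal for vessels and neural crest cells, led in endothelial nuclei at 379 CPM in AEVs and 307 CPM in PBS. Sema3b led in Schwann nuclei at 236 CPM in AEVs and 268 CPM in PBS. Sema3a, the classical growth cone collapsing semaphorin, was highest in astrocytes, at 85.2 CPM in AEVs and 118 CPM in PBS. Its AEVs over PBS ratio there, 0.723 (0.628 to 0.832), stayed inside the 1.5-fold limits. Neuropilin-1, the co-receptor that Sema3a needs, was at 594 CPM in AEVs and 730 CPM in PBS Gpnmb-led phagocytes, and at 437 and 416 CPM in microglia. It was at 720 CPM in AEVs and 523 CPM in PBS macrophages, and at 326 and 525 CPM in fibroblasts. It was at 6.54 CPM in AEVs and 4.62 CPM in PBS oligodendrocytes, at the low end of its range over classes.

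The membrane-bound semaphorins were spread over more classes. Sema5b led in precursors, at 188 CPM in AEVs and 155 CPM in PBS. Sema5a led there too, at 577 CPM in AEVs and 754 CPM in PBS. Sema7a, a lipid-anchored semaphorin that signals through integrins and plexin C1, led in endothelial nuclei, at 232 CPM in AEVs and 211 CPM in PBS. Its plexin, Plxnc1, led in Gpnmb-led phagocytes, at 153 CPM in AEVs and 157 CPM in PBS, so ligand and receptor were led by different classes. Sema6b also led in endothelial nuclei, and Sema4c and Sema6c in Schwann nuclei. Sema4d, the ligand of plexin B1 found on oligodendrocytes and immune cells, was highest in microglia at 170 CPM in AEVs and 238 CPM in PBS. Gpnmb-led phagocytes were close behind, at 190.5 CPM pooled against 200.4 CPM in microglia.

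Of the plexins, Plxna2, a receptor of Sema6a, was led by fibroblasts at 877 CPM in AEVs and 1141 CPM in PBS. Plxna4, a receptor of Sema3a and Sema6a, was led by neurons at 274 CPM in AEVs and 366 CPM in PBS. Plxna3 was led by precursors at 16.9 and 21.5 CPM. Plxnb1, the Sema4d receptor, was highest in astrocytes at 79.6 CPM in AEVs and 64.0 CPM in PBS. Plxna1 was led by mural nuclei on 7 UMIs and Plxnb2 by ependymal nuclei. Plxnd1 was at 49.6 CPM in Schwann nuclei and 49.5 CPM in endothelial nuclei, both pooled. The plexins were thus divided between neuronal, fibroblast, phagocyte, vascular and several glial classes.

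The 22 ephrins and Eph receptors were led by several classes. Neurons led for Efna3, Epha6 and Epha10 by at least 2-fold, with Epha6 at 470 CPM in AEVs and 587 CPM in PBS and the kinase-defective Epha10 at 124 and 123 CPM. Fibroblasts led for the ephrins Efnb1 and Efnb2 and for the receptors Epha3 and Epha7. Efnb2, known as a mark of arterial endothelium, was at 125 CPM in AEVs fibroblasts and 131 CPM in PBS fibroblasts. Its vascular receptor Ephb4 led in endothelial nuclei at 65.2 CPM in AEVs and 55.4 CPM in PBS. Endothelial nuclei were also the leading class for Efna1. Efnb3, known as a repellent of corticospinal axons on myelin, was highest in the Klk6-led class and in oligodendrocytes, at 246 and 240 CPM pooled, and at 19.9 CPM in neurons. Epha2 was named for mural nuclei on 10 UMIs alone.

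Over all nuclei, 4 of the 42 members tested passed 1.5-fold between AEVs and PBS. The other 9 (Sema3b, Sema3g, Plxnd1, Efna4, Epha1, Epha2, Epha8, Ephb3 and Ephb4) did not meet the conditions on counts or nuclei, with 397 UMIs or fewer in either library. Efna1 and Efnb3 were higher and Plxnb3 and Ephb1 were lower, while 5.46% of all genes tested were higher and 2.23% lower. Efna1 was at 8.27 CPM in AEVs and 4.23 CPM in PBS, a ratio of 1.96. Efnb3 was at 71.1 CPM in AEVs and 46.3 CPM in PBS, a ratio of 1.53. Both are ephrins whose level in oligodendroglia was above that in neurons. Plxnb3, a receptor of Sema5a, was at 19.3 CPM in AEVs and 34.3 CPM in PBS, a ratio of 0.563. Ephb1, an Eph receptor for B-type ephrins, was at 136 CPM in AEVs and 211 CPM in PBS, a ratio of 0.644. With the class shares of both libraries set equal the log2 ratios were 0.98 for Efna1, 0.64 for Efnb3, -0.77 for Plxnb3 and -0.68 for Ephb1, so all 4 stayed past 1.5-fold with one mix of classes. Of all genes past 1.5-fold, 71.0% were higher in AEVs with scaling to the total and 51.1% with TMM scaling, which moved all log2 ratios by -0.10 and left 1 member higher and 3 lower. The 38 members inside the limits ran between 0.684 for Efnb1 and 1.31 for Efna2.

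In oligodendrocytes, 2 of 10 members tested were higher in AEVs and 3 were lower, against 11.2% of all genes higher and 3.23% lower. The lower members were the receptors Ephb1, Epha4 and Plxnb3, and the higher ones were the ligands Efna1 and Sema6a. In the Klk6-led class, 2 of 8 members were higher (Efna1 and Sema6a) and 3 were lower (Ephb1, Plxnb3 and Sema6d), against backgrounds of 12.3% and 4.78%. The 5 members within 1.5-fold in oligodendrocytes ran between 0.709 for Sema6d and 1.495 for Efnb3. Efnb3 was at 286 CPM in AEVs and 191 CPM in PBS oligodendrocytes and at 294 and 196 CPM in the Klk6-led class, just inside the limit at a log2 ratio of 0.58 against 0.585 in both. The share of called genes that were higher was 77.6% with scaling to the total and 52.1% with TMM in oligodendrocytes, and 72.0% and 53.8% in the Klk6-led class. TMM moved all log2 ratios by -0.14 and -0.11 there. It left 1 higher and 4 lower members in oligodendrocytes and 2 higher and 4 lower in the Klk6-led class.

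Ephb1 was at 264 CPM in AEVs oligodendrocytes and 504 CPM in PBS oligodendrocytes, a ratio of 0.524 (0.498 to 0.551). In the Klk6-led class it was at 269 CPM in AEVs and 591 CPM in PBS, a ratio of 0.455 (0.418 to 0.495). A finer clustering gave 6 oligodendrocyte clusters, of which 5 held enough nuclei to compare and 1, with 83 AEVs and 65 PBS nuclei, was left out. In the 5 clusters compared, Ephb1 levels were 130, 200, 247, 163 and 495 CPM in AEVs and 271, 391, 576, 298 and 967 CPM in PBS, in the same cluster order. The cluster ratios ran between 0.430 and 0.547. The finer clusters were named anew and are not all parts of the oligodendrocyte class used above. The one with the lowest Ephb1 ratio (974 AEVs and 551 PBS nuclei) was led by Apod and Anln, which also led the Klk6-led class. The cluster with the highest Ephb1 level was the same in both libraries. The count of Ephb1 is not stated to use strand, and 9 annotated genes overlap it, of which 1 is a coding gene on the other strand.

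Plxnb3 gave the same picture at a lower level, with 85.5 CPM in AEVs and 152 CPM in PBS oligodendrocytes (ratio 0.562, 0.514 to 0.615), and 92.3 CPM in AEVs and 166 CPM in PBS nuclei of the Klk6-led class (0.555, 0.477 to 0.644). It was lower past 1.5-fold in 5 of the 5 finer oligodendrocyte clusters compared, with ratios between 0.538 and 0.607. Plxnb3 has its main level in oligodendroglia, since neurons held 2.03 CPM in AEVs and 5.25 CPM in PBS. Epha4, the receptor through which ephrin-B3 repels corticospinal axons, was at 29.8 CPM in AEVs and 56.6 CPM in PBS oligodendrocytes (0.528, 0.453 to 0.613). That ratio was uneven over the finer clusters: Epha4 was past 1.5-fold lower in 2 of the 5 compared, at 0.395 and 0.441, and was at 1.22 in another. In the Klk6-led class Epha4 was at 21.9 CPM in AEVs and 25.8 CPM in PBS, which did not pass.

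**Figure D2:**
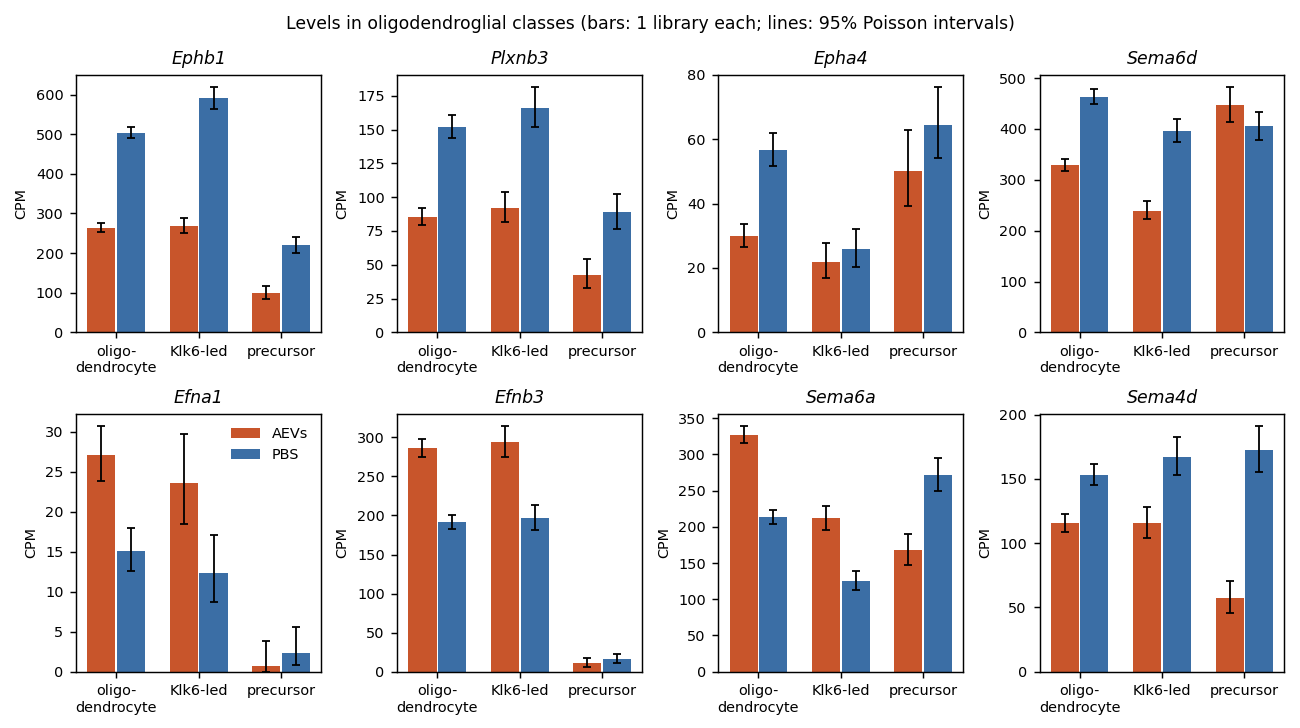
Levels in CPM of 8 members in the oligodendroglial classes, with the AEVs bar left of the PBS bar in each class and exact Poisson 95% intervals as error bars. Ephb1 and Plxnb3 bars are lower in AEVs in all 3 oligodendroglial classes, while Sema6a is higher in AEVs in oligodendrocytes and the Klk6-led class and lower in precursors.

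The ligands that were higher behaved differently over the finer clusters. Efna1, a lipid-anchored ephrin, was at 27.1 CPM in AEVs and 15.1 CPM in PBS oligodendrocytes (1.79, 1.44 to 2.23), and at 23.6 CPM in AEVs and 12.4 CPM in PBS nuclei of the Klk6-led class (1.90, 1.26 to 2.92). In 4 of the 5 finer oligodendrocyte clusters compared it was past 1.5-fold higher, and in the fifth its ratio was 0.821. Sema6a, a transmembrane semaphorin known to take part in oligodendrocyte differentiation in mice, was at 327 CPM in AEVs and 213 CPM in PBS oligodendrocytes (1.53, 1.45 to 1.63). It was at 212 CPM in AEVs and 126 CPM in PBS nuclei of the Klk6-led class (1.69, 1.48 to 1.92). Across the same 5 clusters the Sema6a ratio ran between 1.39 and 4.62, always higher in AEVs and lowest in the cluster led by Apod and Anln. In oligodendrocytes its call was lost under 5 of 10 alternative settings, with log2 ratios of 0.47 under TMM scaling and 0.57 with predicted doublets kept. Sema6d, a semaphorin that binds plexin A1, was at 239 CPM in AEVs and 396 CPM in PBS nuclei of the Klk6-led class, a ratio of 0.605. That call was lost under 4 of 9 settings, in each of which the class was named anew and held other nuclei. Sema6d in oligodendrocytes, 328 CPM in AEVs and 463 CPM in PBS, did not pass.

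Other marker sums moved in these classes as well. In oligodendrocytes the summed markers of Gpnmb-led phagocytes were at 340.0 CPM in AEVs and 529 CPM in PBS, with 0 of 8 at zero in either library, and the summed erythroid markers at 67.7 and 29.4 CPM, with 0 of 6 at zero. The oligodendrocyte markers themselves summed to 21720 CPM in AEVs and 24220 CPM in PBS, and 5 of 10 were higher in AEVs. Their part in the values above was not tested.

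Gene length moved with the ratios over all nuclei, with a median log2 ratio of 0.24 for genes under 20 kb and -0.13 for genes of 100 kb or more. In fibroblasts these medians were -0.005 and -0.04. In oligodendrocytes the median log2 ratio of all genes was 0.29 for genes under 20 kb, 0.07 for genes of 20 to 100 kb and -0.13 for genes of 100 kb or more, and 18.7% of the short genes but 4.26% of the long genes were past 1.5-fold higher. Of the long genes 9.79% were past 1.5-fold lower, against 2.25% of the short ones. Efna1 (9410 bases) is short and was higher, Efnb3 (6114 bases) is short and stayed inside the limit at 1.495, and Ephb1 (432566 bases) and Epha4 (147904 bases) are long and were lower. Plxnb3 (15425 bases) is short and was lower, and Sema6a (133273 bases) is long and was higher. In the Klk6-led class 13.7% of the long genes and 2.66% of the short ones were past 1.5-fold lower. Of the members lower there, Ephb1 and Sema6d (577802 bases) are long and Plxnb3 is short. The part of length in these values was not tested.

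**Figure D3:**
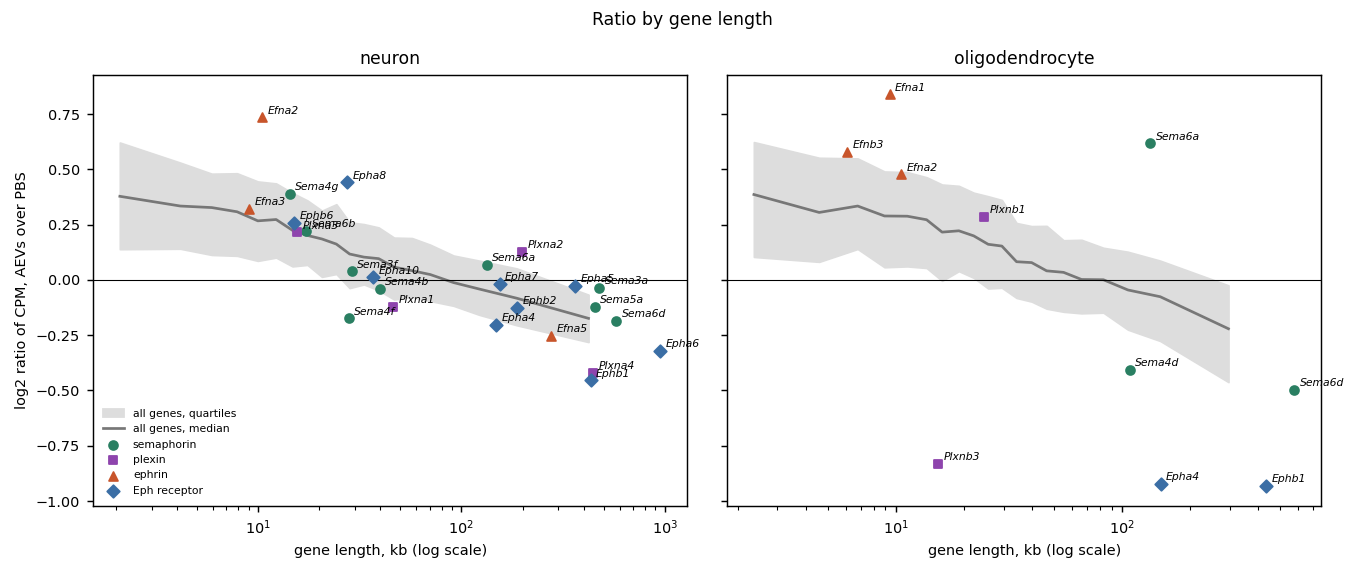
Log2 of the AEVs over PBS ratio against gene length on a log axis, in neurons and in oligodendrocytes, with the median and quartiles of all genes as a line and band and each tested member as a point. The medians of all genes fall with length, and in oligodendrocytes Plxnb3 lies below the short genes and Sema6a above the long ones.

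In precursors, 1 of 14 members tested was higher in AEVs (Epha5) and 6 were lower (Sema4d, Ephb1, Plxnb3, Sema4a, Ephb2 and Sema6a), against 5.84% of all genes higher and 6.82% lower. The median log2 ratio of the 14 members was -0.38, against -0.02 for all genes tested. Of all called genes 46.2% were higher with scaling to the total and 34.6% with TMM, with the same count of members either way. Sema4d was at 56.9 CPM in AEVs precursors and 172 CPM in PBS precursors, 3.03-fold lower (ratio 0.330, 0.257 to 0.420). Ephb1 was at 100.3 CPM in AEVs and 220.0 CPM in PBS, a ratio of 0.456. Plxnb3 was at 42.7 CPM in AEVs and 88.8 CPM in PBS, a ratio of 0.481. In the AEVs library all 3 were at a higher level in mature oligodendrocytes than in precursors. Sema6a was at 168 CPM in AEVs and 272 CPM in PBS, a ratio of 0.619, the other direction from the mature classes. Sema4a, known from immune cells, was at 17.6 CPM in AEVs and 31.0 CPM in PBS. Ephb2, a B-type Eph receptor, was at 25.1 CPM in AEVs and 42.0 CPM in PBS, and its call was lost with doublets kept (log2 ratio -0.54) and with thinning (-0.16). Epha5, a receptor of A-type ephrins, was at 491 CPM in AEVs and 309 CPM in PBS, a ratio of 1.59 (1.43 to 1.77).

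The precursor class held nuclei with and without genes of a later stage, and their shares differed. Nuclei with at least 1 UMI of Gpr17 or Enpp6, which mark cells leaving the precursor state, were 133 of 391 in AEVs (34.02%, 29.3 to 39.0) and 226 of 458 in PBS (49.3%, 44.7 to 54.0). With every nucleus thinned to 1000 UMIs the shares were 16.9% of 384 AEVs nuclei (13.3 to 21.1) and 29.1% of 450 PBS nuclei (24.95 to 33.6), with 7 and 8 shallower nuclei left out. Microglia, which should lack both genes, had a share of 0.564% in AEVs and 1.12% in PBS at median depths of 1471.5 and 1570.5 UMIs, against 3416 and 4058.5 in precursors. In this class the summed oligodendrocyte markers were at 2281 CPM in AEVs and 4246 CPM in PBS, and the summed markers of differentiating cells at 2119 and 3260 CPM. None of these 10 and 6 markers was higher in AEVs or at zero in either library. The precursor's own markers summed to 21240 CPM in AEVs and 20390 CPM in PBS. Gpr17 and Enpp6 are themselves among the 6 markers. In neurons the same sums were at 531 CPM in AEVs and 1015 CPM in PBS, and at 46.25 and 91.86 CPM. In microglia they were at 930 and 1383 CPM, and at 507 and 719 CPM. Oligodendrocyte markers in Schwann nuclei (8344 and 6775 CPM) and differentiating markers in fibroblasts (652 and 598 CPM) went the other way. The part of free RNA in the precursor sums was not tested.

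Among precursor nuclei without a UMI of Gpr17 or Enpp6, Sema4d was at 21.4 CPM in AEVs and 25.6 CPM in PBS (ratio 0.835, 0.438 to 1.58). Ephb1 was at 42.7 CPM in AEVs and 57.5 CPM in PBS, a ratio of 0.742. Plxnb3 was at 25.6 CPM in AEVs and 19.2 CPM in PBS, a ratio of 1.34. Of the 7 precursor calls, Ephb2 alone stayed past 1.5-fold in its direction there, at 31.0 CPM in AEVs and 51.1 CPM in PBS. Among nuclei with such a UMI, Sema4d was at 119 CPM in AEVs and 291 CPM in PBS (0.407, 0.307 to 0.533), Ephb1 at 200.2 and 352 CPM (0.569) and Plxnb3 at 72.3 and 145 CPM (0.498). Sema4d, Ephb1, Plxnb3 and Sema6a were therefore at higher levels in the nuclei with such a UMI in both libraries. Their ratios were past 1.5-fold lower in those nuclei and not in the nuclei without. The Ephb1 intervals overlapped, at 0.481 to 1.14 without the markers and 0.456 to 0.705 with them. Without the markers Sema4d had 20 UMIs in AEVs and 24 in PBS, and Plxnb3 24 and 18. Whether the ratios differ between these nuclei was not tested. Median depth was 3234 UMIs in AEVs and 3752 in PBS without the markers, and 3747 and 4402.5 with them. Epha5 ran the other way, at 570 CPM in AEVs and 447 CPM in PBS without the markers and 352 and 197 CPM with them, so its ratio was 1.28 and 1.79. The 7 precursor members inside the limits ran between 0.765 for Sema5a and 1.46 for Sema3a, which was at 76.6 CPM in AEVs and 52.5 CPM in PBS.

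**Figure D4:**
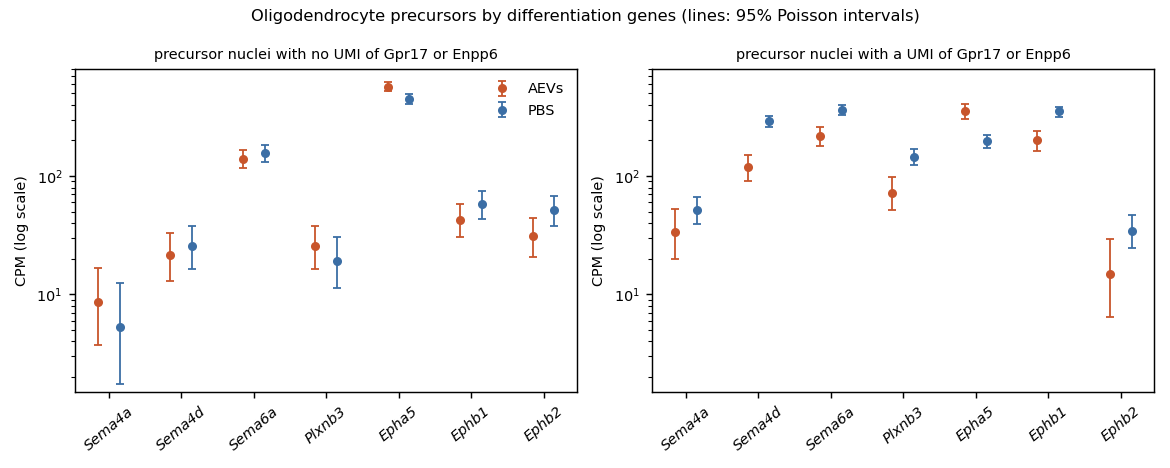
Levels in CPM (log axis) of the 7 members called in precursors, split into nuclei without and with a UMI of Gpr17 or Enpp6, AEVs left of PBS, with exact Poisson 95% intervals. Sema4d, Ephb1 and Plxnb3 are low in both libraries where the markers are at 0 and are lower in AEVs than in PBS where they are present.

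In astrocytes, 1 of 12 members tested was higher in AEVs (Ephb6) and 2 were lower (Sema6d and Efna2), against 6.08% of all genes higher and 2.7% lower. Sema6d is highest in astrocytes of all classes and was at 466 CPM in AEVs and 831 CPM in PBS, 0.561 (0.530 to 0.594). Its ratio was 0.578 in Slc7a10-led astrocytes, 0.557 in A2m-led astrocytes and 0.496 in Lcn2-led astrocytes, so it was lower in 3 of 3 finer clusters. Efna2 was at 10.4 CPM in AEVs and 18.5 CPM in PBS, a ratio of 0.562. Ephb6, a kinase-defective receptor, was at 16.1 CPM in AEVs and 7.37 CPM in PBS (2.19, 1.40 to 3.50). The 9 members inside the limits ran between 0.696 for Ephb2 and 1.24 for Plxnb1. All 3 ratios stayed past 1.5-fold under 9 of 9 alternative settings that could be run. Ephb6 no longer met the conditions on counts or nuclei with doublets kept, and Efna2 no longer met them with thinning, at log2 ratios of 1.05 and -1.02. With a minimum of 100 UMIs neither was tested. The summed oligodendrocyte markers in astrocytes were at 2205 CPM in AEVs and 3025 CPM in PBS, with 1 of 10 higher in AEVs, and the fibroblast markers at 289.8 and 449.6 CPM, with 0 of 10 higher. Erythroid markers were at 153 CPM in AEVs and 86.6 CPM in PBS, and the astrocyte markers themselves summed to 15330 and 17910 CPM. Of these, 1 erythroid marker was at zero in PBS, and their part in the values was not tested. Of all called genes 69.2% were higher with scaling to the total and 55.7% with TMM.

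In neurons, 24 of the 25 members tested stayed within 1.5-fold, and 1 was higher, against 7.86% of all genes higher and 1.34% lower (85.5% of calls higher, and 71.0% with TMM). The exception was Efna2, an A-type ephrin, at 7.97 CPM in AEVs and 4.79 CPM in PBS (1.66, 1.40 to 1.98). Of 15 finer neuron clusters 10 held enough nuclei to compare, and Efna2 was higher in 9 of these and past 1.5-fold in 5. In excitatory neurons Efna2 was at 12.2 CPM in AEVs and 6.41 CPM in PBS, and in inhibitory neurons at 8.13 and 4.29 CPM. Efna2 is a short gene (10529 bases). Of genes under 20 kb, 13.7% were past 1.5-fold higher in neurons, 19.0% in excitatory and 18.1% in inhibitory neurons. The part of length in the Efna2 ratio was not tested. The 24 members inside the limits ran between 0.730 for Ephb1 and 1.36 for Epha8. Epha5 was at 521 CPM in AEVs and 531 CPM in PBS, Sema3a at 46.3 and 47.4 CPM, Epha7 at 101 and 103 CPM and Efna5 at 362 and 432 CPM. Plxna4 in neurons had a ratio of 0.748 and Ephb1, at 130 CPM in AEVs and 178 CPM in PBS, a log2 ratio of -0.45. The summed oligodendrocyte markers in neuron nuclei were at 531 CPM in AEVs and 1015 CPM in PBS, and the astrocyte markers at 208 and 428 CPM, none at zero, and their part in the neuronal values was not tested.

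Among excitatory neurons, 2 of 22 members tested were higher (Efna2 and Epha8) and 3 were lower (Sema3f, Sema6d and Ephb1), against 10.1% of all genes higher and 1.18% lower. Ephb1 was at 174 CPM in AEVs and 279 CPM in PBS, and Sema6d at 332 and 524 CPM. Sema3f, a ligand that acts through neuropilin-2, was at 5.45 CPM in AEVs and 8.86 CPM in PBS. Epha8 was at 10.8 CPM in AEVs and 6.41 CPM in PBS, and its call was lost when nuclei were thinned to 1000 UMIs. In inhibitory neurons 1 of 25 members was higher (Efna2) and 0 were lower, against 9.73% and 1.54%. In cholinergic neurons 0 of 15 were higher and 1 was lower (Plxna1), against 7.33% and 3.52%. Plxna1 was at 19.3 CPM in AEVs and 30.2 CPM in PBS there and changed direction when nuclei were thinned, to a log2 ratio of 0.27. The share of called genes that were higher was 89.5% in excitatory, 86.3% in inhibitory and 67.6% in cholinergic neurons, and 76.0%, 62.9% and 45.0% with TMM. TMM moved the log2 ratios by -0.11, -0.14 and -0.10 in these sub-classes, adding 1 lower member in excitatory and 1 in inhibitory neurons.

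In fibroblasts, 0 of 12 members tested were higher in AEVs and 2 were lower (Epha3 and Plxna4), against 6.9% of all genes higher and 6.48% lower. Epha3, a receptor that prefers ephrin-A5, is led by fibroblasts and was at 133 CPM in AEVs and 369 CPM in PBS, 2.78-fold lower (0.360, 0.303 to 0.425). Its ligand Efna5 was highest in neurons. Epha3 was lower past 1.5-fold in 3 of 3 finer fibroblast clusters, at 76.4 CPM in AEVs and 496 CPM in PBS in the Col1a1-led cluster, 134 and 285 CPM in the Ranbp3l-led cluster and 154 and 291 CPM in the Slc47a1-led cluster. Those clusters held 134 AEVs and 487 PBS nuclei, 252 and 214, and 165 and 300, so the mix of fibroblasts differed as well. The 10 members inside the limits ran between 0.687 for Ephb2 and 1.08 for Epha4. Epha7, another fibroblast-led Eph receptor, did not pass, at 309 CPM in AEVs and 327 CPM in PBS. Plxna4 was at 54.6 CPM in AEVs and 103 CPM in PBS (0.529), and in the Col1a1-led cluster its ratio was 0.897. Summed macrophage markers were at 473 CPM in AEVs and 946 CPM in PBS fibroblasts, with 0 and 1 of 10 at zero, and summed mural markers at 926 and 551 CPM, with 0 of 10 at zero. The fibroblast markers summed to 9082 CPM in AEVs and 11170 CPM in PBS, and the part of all 3 in these values was not tested. Of all called genes 51.6% were higher with scaling to the total and 33.3% with TMM, under which 4 members were lower.

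The immune, vascular and Schwann classes had few members with enough counts. In microglia 0 of 4 were higher and 1 was lower, against 12.6% and 3.7%, and that was Plxna4 at 111 CPM in AEVs and 213 CPM in PBS (0.522, 0.430 to 0.632). Plxna4 was thus called lower in microglia and fibroblasts, and its gene carries 3 antisense genes whose reads cannot be told apart from its own without strand. In Gpnmb-led phagocytes 0 of 5 were higher and 1 was lower, against 9.56% and 4.63%, and that was Plxna1, a receptor of Sema6d, at 20.3 CPM in AEVs and 33.5 CPM in PBS. That call was lost with the stricter filter (log2 ratio -0.17) and without the mitochondrial limit (-0.58), and in the larger of 2 finer phagocyte clusters the ratio was 0.904. In endothelial nuclei 0 of 8 were called in either direction, against 8.1% and 4.66%, and their ratios ran between 0.842 for Plxna2 and 1.49 for Efna1. Efna1 was at 65.2 CPM in AEVs and 43.6 CPM in PBS endothelial nuclei (0.916 to 2.49), and the endothelial-led Sema3c had a ratio of 1.23 (1.02 to 1.49). In Schwann nuclei 0 of 5 were higher and 1 was lower, against 10.4% and 12.5%. It was Sema3e, a semaphorin that binds plexin D1 without a neuropilin, with 20 UMIs in AEVs and 72 in PBS (67.5 and 219 CPM). Sema3e spans 231414 bases, and 19.0% of genes of 100 kb or more were lower in Schwann nuclei. The part of length in its ratio was not tested. Marker sums of other classes differed here too. In microglia the neutrophil markers summed to 449.8 CPM in AEVs and 736 CPM in PBS, with 2 and 1 of 6 at zero, and the oligodendrocyte markers to 930.2 and 1383 CPM, with 0 of 10 at zero. In Gpnmb-led phagocytes the macrophage markers were at 2147 CPM in AEVs and 3225 CPM in PBS, with 1 and 0 of 10 at zero. The fibroblast markers were at 48.4 CPM in AEVs and 181 CPM in PBS there and the oligodendrocyte markers at 971 and 1535 CPM, with 0 of 10 at zero in each. In Schwann nuclei the precursor markers were at 736 CPM in AEVs and 1355 CPM in PBS and the fibroblast markers at 1161 and 2241 CPM, again with 0 of 10 at zero. Their part in the Plxna4, Plxna1 and Sema3e values was not tested. Called genes were higher in 67.4% of cases in phagocytes and 45.6% in Schwann nuclei, and in 52.5% and 33.7% with TMM. In macrophages no member met the conditions, and Efna4, Epha1, Epha2, Ephb3, Sema3g and Sema6c met them in no class compared.

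**Figure D5:**
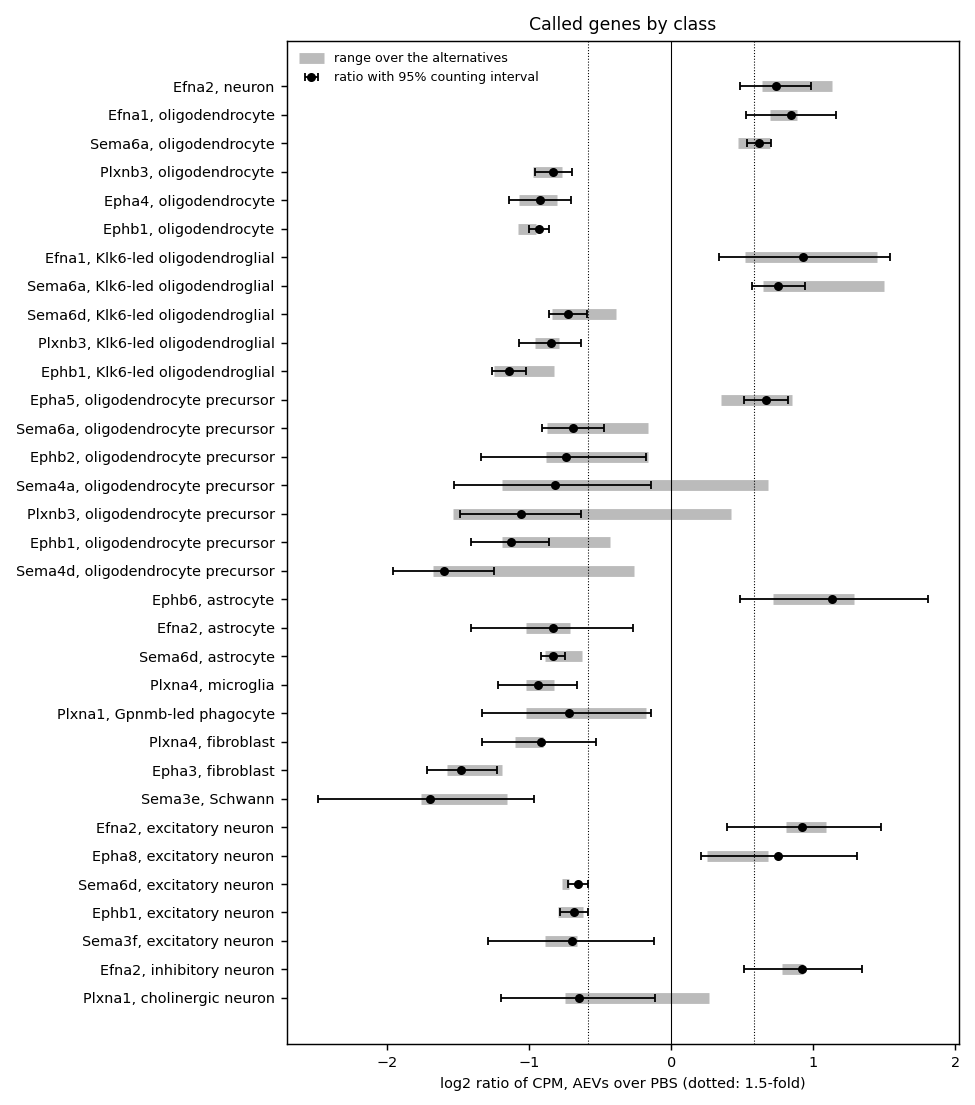
Log2 of the AEVs over PBS ratio for every call of a member within a class, as points with exact 95% counting intervals, with the range over alternative settings as a grey bar and 1.5-fold as dotted lines. Epha3 in fibroblasts and Sema4d in precursors lie far below 0, and the ranges of all 7 precursor members reach inside 1.5-fold.

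Other genes of these pathways were counted over all nuclei first. Of 9 semaphorin co-receptors 7 were tested, of 19 semaphorin and plexin signalling genes 16, and of 18 ephrin and Eph signalling genes 17, and 0 of these passed 1.5-fold in either direction. Of the 5 sheddases and proteases, all tested, 0 were higher and 2 were lower, Adam8 and Mmp14. In neurons 0 of 3 co-receptors, 0 of 14 semaphorin and plexin genes and 0 of 10 ephrin and Eph genes passed. In oligodendrocytes 1 of 8 semaphorin and plexin genes was lower, Dpysl2, a cytoskeletal mediator of Sema3a signals, at 249 CPM in AEVs and 384 CPM in PBS. Among 6 ephrin and Eph genes there 1 was lower, Chn2, a Rac-inactivating chimaerin, at 128 CPM in AEVs and 202 CPM in PBS.

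In precursors 1 of 11 semaphorin and plexin genes was higher and 3 were lower, including Fyn, a kinase of oligodendrocyte maturation, at 668 CPM in AEVs and 1140 CPM in PBS. Among 8 ephrin and Eph genes there 2 were lower, Chn2 and Abl1. In fibroblasts 1 of 4 co-receptors was lower, Nrp1, at 326 CPM in AEVs and 525 CPM in PBS. Of 9 semaphorin and plexin genes in fibroblasts 1 was lower, Dpysl3 at 245 CPM in AEVs and 434 CPM in PBS, and of 8 ephrin and Eph genes 2 were lower, Kalrn and Sdcbp. In astrocytes the 1 co-receptor tested, Met, and 1 of 10 semaphorin and plexin genes, Mical1, were higher. Of 5 ephrin and Eph genes there 1 was lower, Ngef, an exchange factor that links EphA receptors to RhoA, at 39.5 CPM in AEVs and 78.0 CPM in PBS. In inhibitory neurons Ngef was higher, 1 of 10 such genes, at 26.6 CPM in AEVs and 16.1 CPM in PBS. In the Klk6-led class 1 of 8 semaphorin and plexin genes was higher, Dpysl5 at 23.2 CPM in AEVs and 13.4 CPM in PBS, and 1 of 5 ephrin and Eph genes, Pick1 at 45.1 and 29.8 CPM. In Gpnmb-led phagocytes 1 of 4 co-receptors (Cd72), 1 of 8 semaphorin and plexin genes (Dpysl2) and 2 of 8 ephrin and Eph genes (Chn2 and Arhgap39) were lower. The shares of all genes called in each class, given with its members above, are the background of these counts.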

How the data were processed

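The authors deposited raw counts, UMIs per gene and barcode, for 1 library per group; a count minimum of 500 UMIs per barcode was already met. Seurat and the mm10 build are named in the submitters' processing notes, and no source used here gives the aligner or the strand of counting. Libraries held 81875882 UMIs in 17055 AEVs barcodes and 82953601 UMIs in 15325 PBS barcodes. Nuclei with at least 300 genes and under 5% mitochondrial UMIs were kept, and doublets were removed with Scrublet in scanpy 1.11.5 (1400 AEVs and 771 PBS nuclei). Its first random start had called 0 PBS doublets at a threshold of 0.535, so the tool's default start was used after that failure and its clusters had been seen. Nuclei were clustered with Leiden at resolution 1 on 2000 variable genes, members left out, and named by marker lists.

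Sums of UMIs over the nuclei of a class, per library, were scaled to their total. Levels carry exact Poisson intervals and ratios exact conditional binomial intervals, which cover counting error only, and the code was tested on simulated data. Up to 5 called members per class and direction were named, and up to 2 genes of each other list; in precursors Sema6a, the sixth lower member, was named after its value was seen. Gene lengths came from GENCODE M21 and matched 99.6% of features. Members and lists were chosen with earlier results of these data known. Setting the Klk6-led cluster apart, the split by Gpr17 and Enpp6, the length classes and the limit of cholinergic neurons to sub-clusters with all 6 markers raised, and the check of leading genes against all classes, were chosen after seeing the data. Alternatives covered doublets, filters, scaling, weighting, thinning to 1000 UMIs, clustering, count minimum, fold and free RNA.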

Additional observations from a re-analysis of the deposited data

Results flagged for a closer look

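Efna2, an A-type ephrin, passed 1.5-fold in opposite directions between classes. Its AEVs over PBS ratio was 1.66 in neurons, 1.90 in excitatory neurons and 1.89 in inhibitory neurons, and 0.562 in astrocytes. The level in astrocytes rested on 44 UMIs in AEVs and 73 in PBS. Sema6a, a transmembrane semaphorin, had a ratio of 1.53 in oligodendrocytes and 1.69 in the Klk6-led class, and 0.619 in precursors. Among precursor nuclei without a UMI of Gpr17 or Enpp6 the Sema6a ratio was 0.893. With 1 library per group the difference between classes was not tested for either gene.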

How the results depend on the processing

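Of the 37 calls of a member in a class, 23 stayed past 1.5-fold under every alternative counted for them. Among them were Ephb1 and Plxnb3 in both oligodendroglial classes, Epha3 and Plxna4 in fibroblasts and Sema6d in astrocytes. Filter and clustering alternatives named the classes anew, so the 2 oligodendroglial classes did not hold the same nuclei in each. Under the stricter filter the Klk6-led class (1134 AEVs and 1092 PBS nuclei) was led by Gm32122 and Art3, which led an oligodendrocyte cluster in the main setting. The cluster with Anln and Apod then counted as oligodendrocytes. The alternatives counted numbered 8 to 10 per call, but 4 in the neuron sub-classes. Changes of the count minimum, the fold and the free RNA condition were not among them. The calls of Sema4a and Plxnb3 in precursors reversed, to log2 ratios of 0.68 and 0.42, when only nuclei without a UMI of Gpr17 or Enpp6 were used, which left 1 lower member there, and that of Plxna1 in cholinergic neurons reversed to 0.27 with thinning. Counts of called members moved as follows, and the cause was not tested where the setting does not itself change the genes, nuclei or fold counted. At 2-fold, 0 members were higher over all nuclei, in neurons, both mature oligodendroglial classes, precursors, excitatory and inhibitory neurons, and 0 were lower over all nuclei, in oligodendrocytes, astrocytes, microglia, Gpnmb-led phagocytes, excitatory and cholinergic neurons, while 1 was lower in the Klk6-led class, 3 in precursors and 1 in fibroblasts. Without the free RNA condition, 2 members were higher and 1 lower in neurons, 6 lower in oligodendrocytes, 5 lower in the Klk6-led class, 3 higher and 9 lower in astrocytes, 2 lower in phagocytes, 4 lower in fibroblasts, 1 lower in endothelial nuclei, 5 lower in excitatory, 3 higher in inhibitory, and 2 higher and 2 lower in cholinergic neurons. With TMM or median-of-ratios scaling, 1 was higher over all nuclei, 1 higher in oligodendrocytes, 4 lower in fibroblasts and 1 lower in inhibitory neurons. With the mean over nuclei, 4 were lower over all nuclei, 2 higher in astrocytes, 4 lower in fibroblasts, 1 higher in endothelial and 2 lower in Schwann nuclei, and 1 higher and 2 lower in cholinergic neurons. With thinning, 1 was higher over all nuclei, 1 lower in precursors, 1 lower in astrocytes, 1 higher in endothelial and 2 lower in Schwann nuclei, 0 higher in excitatory, and 0 higher and 2 lower in inhibitory neurons. Thinning leaves fewer UMIs: Sema4d, Ephb1, Plxnb3 and Sema4a in precursors and Sema6d and Efna2 in astrocytes kept a ratio past 1.5-fold, while Sema6a and Ephb2 in precursors did not. With a minimum of 20 UMIs, 3 were higher in precursors, 2 lower in microglia, 1 higher in fibroblasts, 2 lower in endothelial nuclei, and 1 higher and 4 lower in Schwann nuclei. With a minimum of 100 UMIs, 1 was higher in the Klk6-led class, 0 higher and 1 lower in astrocytes, 0 lower in phagocytes and Schwann nuclei, 1 higher in excitatory and 0 lower in cholinergic neurons. With doublets kept, 1 was higher in oligodendrocytes and 0 in astrocytes; with the stricter filter, 1 was higher in oligodendrocytes and 4 lower in fibroblasts; at resolution 2, 1 was higher in oligodendrocytes and 1 in the Klk6-led class; with members kept in clustering, 1 was higher in the Klk6-led class and 1 in endothelial nuclei; without a mitochondrial limit, 0 were lower in phagocytes. Neuron sub-classes were not clustered again under the filter and clustering alternatives, nuclei above the mitochondrial limit were not screened for doublets, and Schwann nuclei were too few under the stricter filter. Depth limits members under about 50 UMIs in a class, which were not tested. No paired analysis was possible because each group has 1 library.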
